A study of Homo sapiens with 4 samples.

Results

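The CUT&RUN data described here were the SS18::SSX peak lists of HSSY II cells after treatment with DMSO or MS67, and every peak on chromosomes 1 to 22, X, and Y was used. A DMSO peak was called kept when an MS67 peak overlapped it by at least 1 bp, and lost otherwise. An MS67 peak that overlapped no DMSO peak was called MS67-only. The lists held 15141 peaks with DMSO and 1175 with MS67, out of 66044 peaks in the 4 lists of the series, which also had WDR5 profiled in both conditions. HSSY II is an SS18::SSX1-positive human synovial sarcoma (SS) cell line. Cells were treated for 4 days, either with the solvent DMSO alone or with 2.5 μM MS67. Each library was made from 1000000 cells plus 50000 murine NIH-3T3 cells as a spike-in. With 1 library per condition there were no replicates to compare, and p-values across peaks are not given. The intervals below are exact Clopper-Pearson intervals at the 95% level, and they cover counting error only. Peaks of 1 library are not replicates, and neighboring peaks share their source.

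SS18 is a subunit of the SWI/SNF chromatin-remodeling complexes, which move and evict nucleosomes. The translocation that drives SS fuses it to the tail of an SSX protein, and this tail binds nucleosomes that carry ubiquitinated histone H2A, a mark placed by Polycomb. Polycomb keeps developmental regulator genes silent in cells that do not need them, and the fusion is known to take remodeling complexes to such genes. WDR5 is a core subunit of the KMT2/MLL histone methyltransferase complexes. MS67 is a proteolysis-targeting chimera (PROTAC) that binds WDR5 and brings it to an E3 ubiquitin ligase for degradation. The comparison asks where SS18::SSX stayed on chromatin once WDR5 had been targeted.

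Read totals cannot be read from peak lists. Depth was instead worked out from each peak, since its fold enrichment and p-value together determine the fragments at the summit and the local background. Genome-wide coverage was 0.541 fragments per bp with DMSO and 0.737 with MS67, a ratio of 1.36. The mean fragment length was not measured but fitted from the spacing of the local background values, read as means over 10 kb. The fit gave 136 bp with DMSO and 197 bp with MS67. On that estimate, the number of fragments per kb was nearly equal (3.96 and 3.74). A longer fragment covers more bases, so coverage and summit counts would also carry this difference in length. The shorter list came from the library with the higher coverage.

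Of the 15141 DMSO peaks, 879 (5.81%, interval 5.44 to 6.19%) were kept and 14262 (94.2%) were lost. The kept share depends on the rule: it was 2.91% when an MS67 peak had to cover at least 50% of the DMSO peak, 10.3% when an MS67 peak within 1 kb was enough, and 30.6% for the 1175 DMSO peaks of highest −log10 q. In the other direction, 859 of the 1175 MS67 peaks overlapped a DMSO peak and 316 (26.9%, interval 24.4 to 29.5%) were MS67-only. Of these 316, 174 had no DMSO peak within 1 kb. Much of the overlap was partial: in 440 of the 879 kept peaks, an MS67 peak covered at least 50% of the DMSO peak. The summits of a kept peak and its MS67 partner were a median of 149 bp apart.

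Windows of 200 bases at the summits of 5 promoter sites are given as examples, which need not be typical of kept, lost, or MS67-only sites. The windows come from high in the −log10 q ranking of each class, among windows without exons or repeated sequence. Those of CD24 and PTF1A were picked among CpG-rich sites. All are given in hg38, plus strand, with CG dinucleotides, the bases that CpG islands are rich in, in capitals. The first is the kept promoter site of KCNA7, a voltage-gated potassium channel gene (chr19:49073409-49073608), with 6 CG dinucleotides. The second is the kept, CpG-rich promoter site of CD24, a cell surface glycoprotein gene (chr6:106974097-106974296), with 14. The third is the lost promoter site of the Notch ligand gene DLL4 (chr15:40928648-40928847), with 7. The fourth is the lost, CpG-rich promoter site of PTF1A, a pancreatic and neural bHLH factor gene (chr10:23191707-23191906), with 15. The last is the MS67-only promoter site of CHODL, a membrane lectin gene (chr21:18245590-18245789), with 10. The KCNA7 window had 46.5% G and C, against a median of 61.7% in 300-base windows at kept sites. The CHODL window had 61%, against a median of 45.8% at MS67-only sites.
KCNA7, kept: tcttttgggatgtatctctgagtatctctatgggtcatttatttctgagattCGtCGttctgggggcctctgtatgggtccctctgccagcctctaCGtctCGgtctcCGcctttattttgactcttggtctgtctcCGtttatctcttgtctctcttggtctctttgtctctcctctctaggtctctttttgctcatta
CD24, kept: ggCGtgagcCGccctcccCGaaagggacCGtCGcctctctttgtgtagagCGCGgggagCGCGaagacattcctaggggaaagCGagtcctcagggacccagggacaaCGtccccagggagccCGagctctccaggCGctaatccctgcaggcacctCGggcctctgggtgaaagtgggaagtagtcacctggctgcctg
DLL4, lost: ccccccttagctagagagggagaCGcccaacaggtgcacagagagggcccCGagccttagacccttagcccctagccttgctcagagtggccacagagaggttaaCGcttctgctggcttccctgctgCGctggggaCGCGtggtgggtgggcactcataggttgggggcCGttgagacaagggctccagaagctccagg
PTF1A, lost: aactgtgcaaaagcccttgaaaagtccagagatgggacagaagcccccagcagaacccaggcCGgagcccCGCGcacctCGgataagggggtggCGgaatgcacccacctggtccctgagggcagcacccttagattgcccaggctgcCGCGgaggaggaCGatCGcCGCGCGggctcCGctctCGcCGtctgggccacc
CHODL, MS67-only: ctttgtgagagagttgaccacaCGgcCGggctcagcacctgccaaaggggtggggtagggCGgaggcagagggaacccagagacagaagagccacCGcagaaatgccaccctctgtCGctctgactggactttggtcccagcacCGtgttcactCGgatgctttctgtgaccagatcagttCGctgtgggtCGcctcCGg

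A promoter was taken as 1000 bp upstream to 100 bp downstream of a start site of a GENCODE transcript of the basic set, and a peak was placed by its center. Promoters held 2995 DMSO peaks (19.8% of the list, against 2.70% of the genome by 10-kb tiles), gene bodies 8097 (53.5%, against 58.7%), and intergenic sequence 4049 (26.7%, against 38.6%). The kept share was 4.04% at promoters (121 peaks, interval 3.36 to 4.81%), 5.72% in gene bodies (463 peaks, 5.22 to 6.25%), and 7.29% in intergenic sequence (295 peaks, 6.50 to 8.13%). These intervals did not overlap, and the share for the whole list, 5.81%, lay between them. Within gene bodies, 5.62% of intronic peaks, 5.17% of peaks in coding exons, 5.03% in untranslated exons, and 7.65% in exons of noncoding RNA genes were kept, with overlapping intervals.

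The places were also compared among peaks of like strength. Among the 20% of DMSO peaks with the highest −log10 q (the top quintile), 16.8% were kept at promoters (interval 13.4 to 20.7%), 17.8% in gene bodies (16.04 to 19.8%), and 19.4% in intergenic sequence (16.9 to 22.1%), and these intervals overlapped. Promoters had a lower share than intergenic sequence in all 5 quintiles of −log10 q, although in the lowest quintile only 6 peaks were kept in each. In the middle quintile, 2.21% were kept at promoters, 2.50% in gene bodies (1.79 to 3.39%), and 4.90% in intergenic sequence (3.51 to 6.64%), the last 2 intervals not overlapping. Of the promoter peaks, 729 of 2995 fell in the lowest quintile and 422 in the highest, whereas 701 and 942 of the 4049 intergenic peaks did. With only the 1175 DMSO peaks of highest −log10 q, promoters were no longer lowest (32.9%, against 29.9% in gene bodies and 31.2% in intergenic sequence). Among peaks of like local background the order was not constant. Promoters had a lower share than intergenic sequence in the lowest quintile of background (0.455% against 1.28%) and in the second. Their share was higher in the third (6.18% against 3.73%), the fourth (10.3% against 8.63%), and the highest (13.9% against 13.8%). The promoter and intergenic intervals overlapped in each quintile of background.

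By gene class, 70 of the 2232 DMSO peaks at promoters of protein-coding genes were kept (3.14%, interval 2.45 to 3.95%). At promoters of long noncoding RNA genes 35 of 619 were kept (5.65%, 3.97 to 7.78%). The shares were higher for small RNA genes (6 of 61, 9.84%) and pseudogenes (9 of 65, 13.8%), on few peaks and with wide intervals. The MS67 list accordingly had 63.5% of its promoter peaks at protein-coding genes, compared with 74.5% in the DMSO list. Transfer RNA genes were nearly without SS18::SSX peaks, with a DMSO peak at 1 of 443 annotated genes and no MS67 peak.

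**Figure D1:**
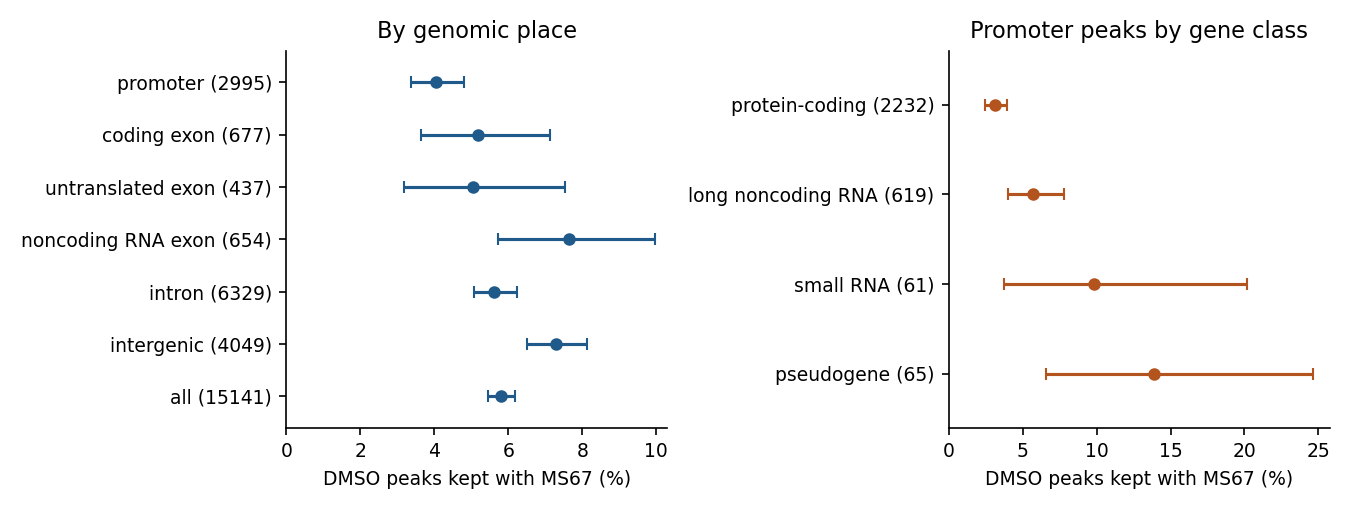
Share of DMSO peaks (x axis, percent) that an MS67 peak overlapped, by genomic place on the left and by gene class for promoter peaks on the right. Points are shares, bars are exact 95% intervals, and the number of DMSO peaks is in parentheses; promoters sit lowest on the left at 4.04% and protein-coding promoters lowest on the right at 3.14%.

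In the top quintile of −log10 q, 551 of 3028 DMSO peaks were kept (18.2%), so most of the strongest peaks were lost too. Kept peaks nevertheless tended to be stronger and wider than lost peaks. Their −log10 q had a median of 7.24 (quartiles 4.63 and 10.6), compared with 3.56 (2.61 and 5.04) for lost peaks. Their summits held a median of 36 fragments against 16, and their median width was 550 bp against 209 bp. Fold enrichment did not follow this pattern, with medians of 3.81 for kept and 4.00 for lost peaks. The local background did differ, with a median of 15.1 times the genome-wide coverage for kept peaks and 5.43 times for lost peaks. It is read here as the mean coverage over 10 kb, and such a mean may include the fragments of the peak itself. On that reading, kept peaks stood in broad regions of higher signal.

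The kept share was higher with higher values of both measures. In the quintile of lowest −log10 q and lowest background, 4 of 1180 peaks were kept (0.339%), and in the quintile highest for both, 307 of 1160 (26.5%, interval 23.9 to 29.1%). At the highest −log10 q but lowest background, 10 of 128 were kept (7.81%, interval 3.81 to 13.9%). By width, the share went from 1.46% below 200 bp to 68.1% (49 of 72) at 1600 bp and above. A wide peak has more sequence in which an overlap can fall; with an MS67 peak required to cover at least 50% of the DMSO peak, the shares were 1.12% below 200 bp, 7.20% from 400 bp to below 800 bp, 10.3% from 800 bp to below 1600 bp, and 9.72% at 1600 bp and above.

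**Figure D2:**
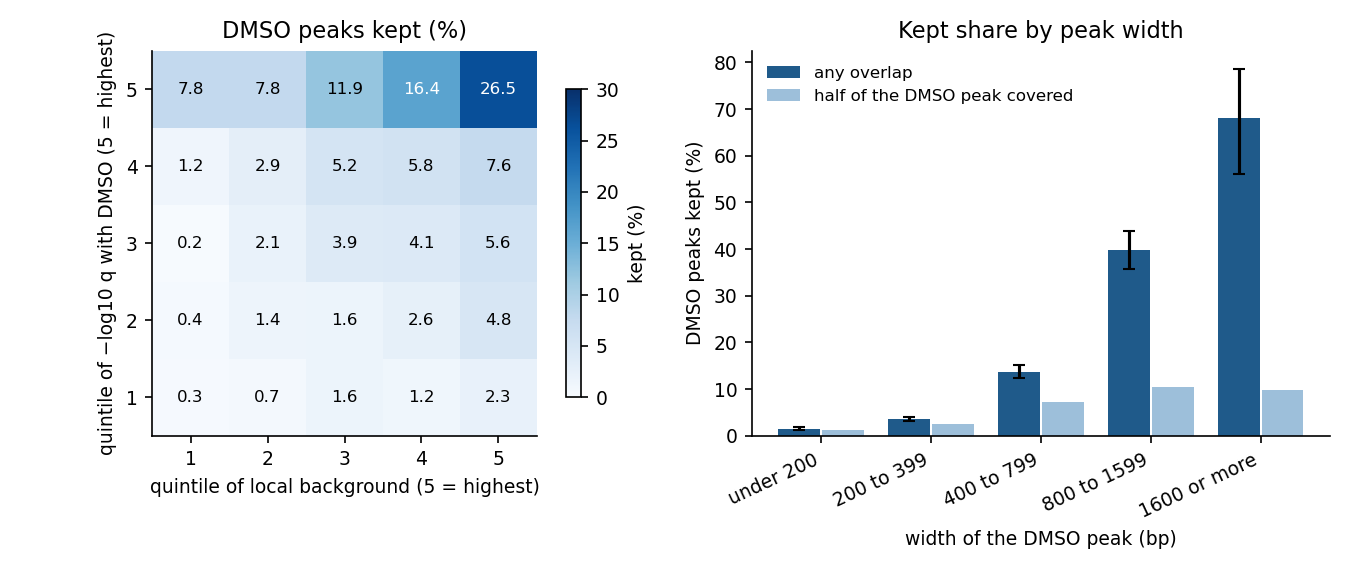
Left, percent of DMSO peaks kept in each combination of −log10 q quintile (y axis) and local background quintile (x axis), from 0.339% at the lowest of both to 26.5% at the highest of both. Right, percent of DMSO peaks kept by peak width in bp, for any overlap (dark bars with exact 95% intervals) and with at least 50% of the DMSO peak covered (light bars).

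At the 879 kept sites, the summit was lower with MS67 when divided by each library’s own coverage. The summit stood at a median of 66.6 times the genome-wide coverage with DMSO and 44.8 times with MS67, with a median ratio of 0.705 (quartiles 0.576 and 0.848), and it was lower with MS67 at 764 sites (86.9%). Not divided by coverage, the summits held medians of 36 and 33 fragments, with a median ratio of 0.962, and the count was lower with MS67 at 462 sites (52.6%). The fold enrichment was lower at 726 sites (82.6%), from a median of 3.81 to 2.998. The 10-kb background differed less than the coverage-scaled summit, with medians of 15.1 and 14.03 times the genome-wide coverage and a median ratio of 0.850. The summit ratio was 0.677 at promoters, 0.705 in gene bodies, and 0.714 in intergenic sequence. Because a kept site must pass peak calling in both lists, these ratios describe the sites that remained and not the sites that were lost. The spike-in was not part of these values, so a change of the whole library could not be seen in them.

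Kept peaks were concentrated near the ends of chromosomes. The outer 2 Mb of the chromosomes made up 2.80% of the genome and held 3524 DMSO peaks (23.3%) and 429 of the 879 kept peaks (48.8%). There, 12.2% of DMSO peaks were kept (interval 11.1 to 13.3%), compared with 6.62% from 2 to 5 Mb and 3.11% (2.71 to 3.54%) beyond 20 Mb. Peaks near the ends also had a higher background, with a median of 18.5 times the genome-wide coverage within 2 Mb and 4.00 times beyond 20 Mb, and a higher median −log10 q (4.27 and 3.48). In the top quintile of −log10 q, 309 of 1042 peaks within 2 Mb were kept (29.7%, interval 26.9 to 32.5%) and 242 of 1986 peaks farther in (12.2%, 10.8 to 13.7%). MS67-only peaks shared this position to a lesser degree: 44 of 316 (13.9%) lay within 2 Mb of an end, against 2.80% of the genome. Beyond 20 Mb lay 179 of them (56.6%), against 70.4% of the genome.

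**Figure D3:**
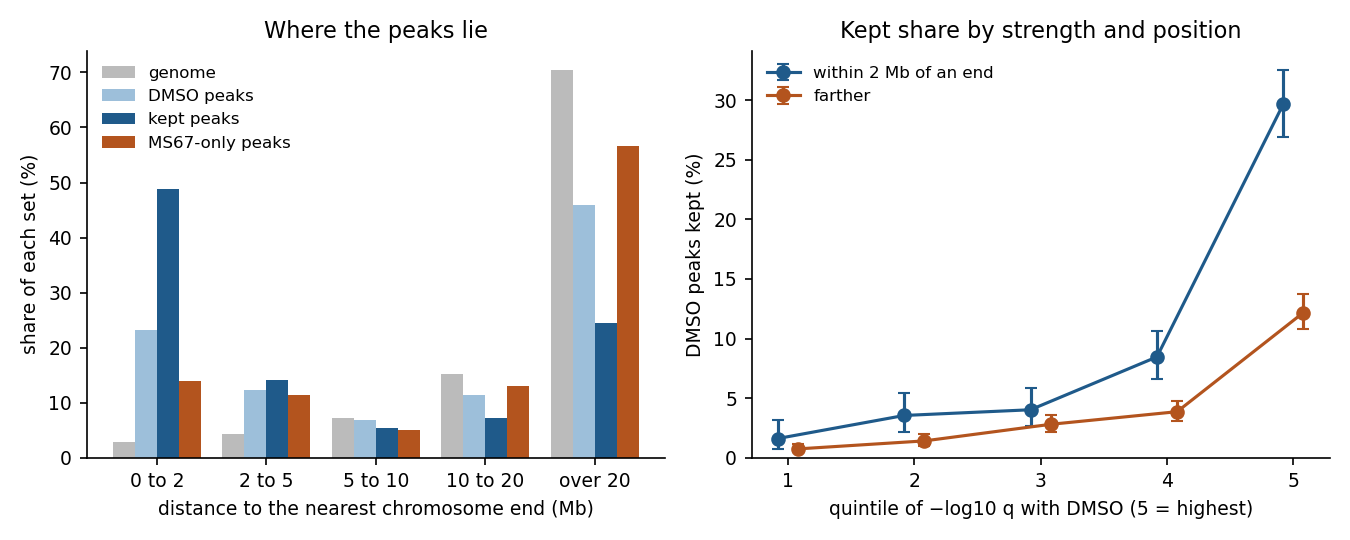
Left, share (percent) of the genome, of DMSO peaks, of kept peaks, and of MS67-only peaks by distance to the nearest chromosome end in Mb; kept peaks reach 48.8% in the outer 2 Mb, which hold 2.80% of the genome. Right, percent of DMSO peaks kept by quintile of −log10 q, within 2 Mb of an end and farther in, with exact 95% intervals.

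The kept share also differed between chromosomes. On chromosome 20, 75 of 689 DMSO peaks were kept (10.9%, interval 8.66 to 13.5%), and on chromosomes 7 and 10 the shares were 8.38% and 8.33%. On chromosome 19 it was 3.21% (25 of 778) and on chromosome X 1 of 186 (0.538%).

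The genes with the most DMSO peaks, counted within the gene and 10 kb on either side, were mostly large genes near chromosome ends. PTPRN2, which encodes a receptor-type phosphatase of secretory granules (chr7:157539056-158587823), had 107 DMSO peaks, of which 21 were kept, and 6 of its 26 MS67 peaks were MS67-only. PRDM16, a transcriptional regulator of brown fat and hematopoietic stem cells, had 70 peaks and kept 6. NFATC1, a calcium-responsive transcription factor gene, had 65 and kept 11. C7orf50 had 54 and kept 9, CBFA2T3, a transcriptional corepressor gene, had 46 and kept 9, and INPP5A, an inositol phosphatase gene, had 46 and kept 8. The lowest share among the 10 was at DIP2C, with 2 of 38 kept. For comparison, of 6379 protein-coding genes with a DMSO peak within 10 kb, 547 (8.58%) had a kept one, and of the 170 genes with 10 or more DMSO peaks, 105 had (61.8%), as more peaks give more chances to keep one.

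**Figure D4:**
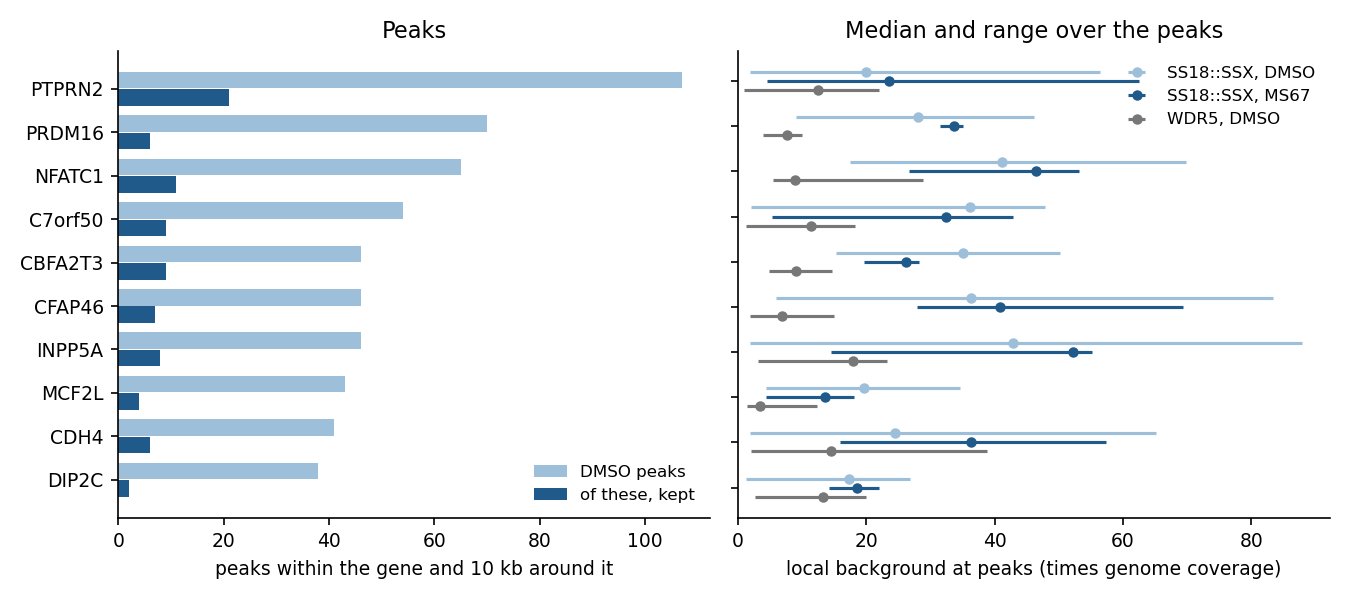
Left, number of DMSO peaks and of kept peaks within 10 kb of the 10 protein-coding genes with the most DMSO peaks. Right, local background at the peaks of the same genes in times the genome-wide coverage of each library, as the median (point) and the lowest and highest value (line); PTPRN2 has the most peaks, with 21 of 107 kept.

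Of 20033 protein-coding genes, 2511 (12.5%) had a DMSO peak overlapping a promoter, and 106 of these (4.22%, interval 3.47 to 5.08%) also had an MS67 peak overlapping a promoter of the same gene, which need not be the same site. A further 18 genes had a promoter peak with MS67 but not with DMSO. Promoter binding was more common among developmental regulators than among all genes. Of 258 genes of 15 families of developmental transcription factors, 76 (29.5%) had a DMSO promoter peak, and 6 of the 76 kept one (7.89%, interval 2.95 to 16.4%). Of 157 signaling genes, 35 were bound (22.3%) and 3 kept a peak. Of 28 genes of the cell cycle and p53 lists, 9 were bound (32.1%) and 1, TP73, had a promoter peak in both lists, at different sites. Among 1024 genes of housekeeping and zinc finger families, 12.01% were bound, near the share of all genes. Of these bound genes, 2 had a promoter peak in both lists (1.63%, interval 0.198 to 5.75%), 1 of them, RPL7, at different sites. Of 15 bound genes for SWI/SNF, Polycomb, and KMT2 subunits, none kept a promoter peak, and the upper limit of that share was 21.8%. The intervals of the developmental group and of all genes overlapped. The median −log10 q of the best promoter peak was 4.45 for developmental, 2.96 for housekeeping, and 3.38 for all bound genes.

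**Figure D5:**
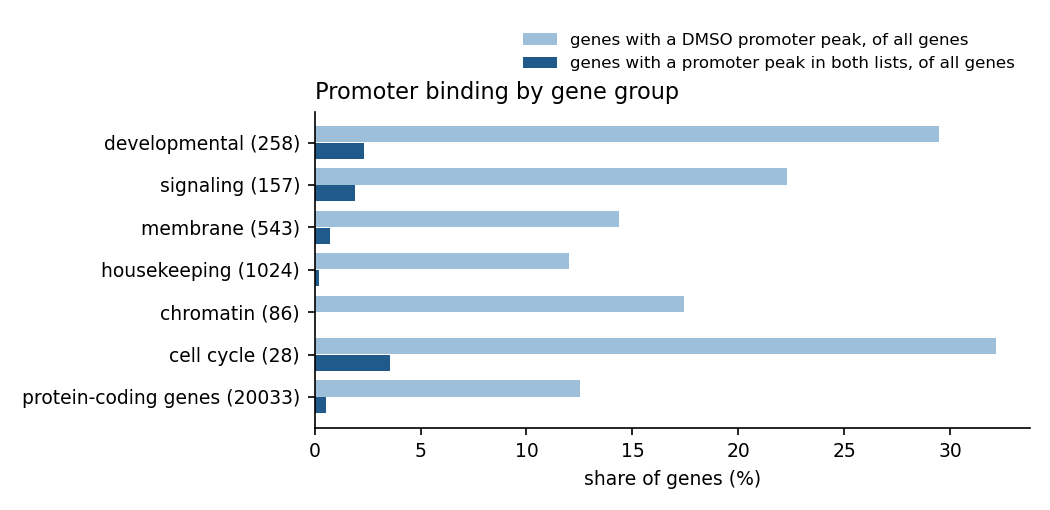
Share of genes (percent) with a DMSO promoter peak and with a promoter peak in both lists, for 6 groups of genes and for all protein-coding genes, with the number of genes in parentheses. Developmental genes stand at 29.5% with DMSO, against 12.5% of all genes, and few genes of any group have a peak in both lists.

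Most promoter peaks of developmental families were lost, as were those of all protein-coding genes, where 4.22% of the bound genes kept one. Of 39 HOX genes, which set position along the body axis, 12 had a DMSO promoter peak and 0 kept it (interval up to 26.5%, which holds the 4.22% of all bound genes). The strongest was at HOXA4, with −log10 q of 13.97 and 41 fragments at the summit, followed by HOXA9 with 13.3 and 71 fragments. All 6 bound SOX genes lost their promoter peak, the strongest being SOX3, a neural progenitor factor, with −log10 q of 7.92, and the interval of 0 of 6 reached 45.9%. Of 16 bound genes for neural and mesodermal bHLH factors, 1 kept a peak, and PTF1A (13.1), BHLHE23 (11.8), and NEUROG3, the endocrine pancreas factor (10.2), were among those lost.

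The 6 developmental genes that kept a promoter peak came from 6 families. Each DMSO peak is given here with the MS67 peak that overlapped it. They were SIM2, a midline bHLH factor (−log10 q 12.2 with DMSO and 7.46 with MS67), IRX4, a ventricular Iroquois factor (14.9 and 4.07), LHX3, a pituitary and motor neuron LIM factor (11.6 and 3.73), PAX5, the B cell factor (7.29 and 3.14 at one site, 2.84 and 3.56 at another), TBXT, the notochord T-box factor (4.35 and 3.38), and FOXI2 (2.88 and 4.02). SIM2 had 68 fragments at its DMSO summit and 84 at its MS67 summit, which is 125.8 and 114.0 times the genome-wide coverage. PAX5, IRX4, LHX3, and TBXT also had promoter peaks that were lost, the strongest of them at TBXT with −log10 q of 5.26. Within 10 kb, where more peaks give more chances, 34 of the 192 developmental genes with a DMSO peak within 10 kb had a kept peak (17.7%), including 2 sites at SOX9 out of 3 and 2 of 23 at HOXA3. Among all protein-coding genes the share was 8.58% and among the housekeeping and zinc finger families 9 of 258 (3.49%).

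MNX1, a motor neuron homeobox gene, had a DMSO promoter peak with −log10 q of 12.5 and 72 fragments at the summit, and no MS67 peak there, while 2 of its 9 DMSO peaks within 10 kb were kept. NTSR1, the neurotensin receptor gene, had 2 DMSO promoter peaks, the stronger with −log10 q of 5.04, and none of its 6 peaks within 10 kb was kept. SOX8, a neural crest factor gene, had no promoter peak but 9 DMSO peaks within 10 kb, of which 1 was kept. FOXC1 and the Wnt receptor gene FZD10 each had 1 DMSO peak within 10 kb, which was lost.

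Strong promoter peaks were also lost at signaling genes, where the kept share (3 of 35) had an interval of 1.80 to 23.1% that held the 4.22% of all genes. The strongest among Notch genes was at DLL4, with −log10 q of 17.5 and 50 fragments at the summit, and the Notch effector HES5 followed with 9.94. None of the 6 bound Notch pathway genes kept a promoter peak (interval up to 45.9%). The Wnt ligand WNT7B (11.5) and the receptor FZD8 (9.71) lost theirs, and WNT3A kept a weak peak (2.78 with DMSO and 2.82 with MS67). FGF3, a growth factor of the inner ear and tail bud, kept its peak, with −log10 q of 3.76 and 6.02, and EFNA2, an ephrin ligand, kept one with 4.75 and 2.95. Among genes that brake the cell cycle, CDKN1B, the p27 gene, had a peak of −log10 q 12.5 with DMSO, and CDKN1A, the p21 gene, one of 5.02; neither promoter had an MS67 peak.

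The housekeeping and zinc finger families together had a median −log10 q of 2.96 for the best promoter peak, against 3.38 for all bound genes. The families named here were not all weaker than that. Their medians were 3.97 for cytosolic ribosomal proteins, 3.398 for mitochondrial ribosomal proteins, and 3.25 for the respiratory chain. Of 84 respiratory chain genes 14 were bound, the strongest at NDUFA11 (−log10 q 5.96, 13 fragments), and none was kept (interval up to 23.2%). None of the 9 bound mitochondrial ribosomal protein genes kept a peak (up to 33.6%), and both intervals hold the 4.22% of all bound genes. RPL7 was the only 1 of 9 bound cytosolic ribosomal protein genes with an MS67 promoter peak, but its own DMSO peak (−log10 q 7.16) was lost, and the MS67 peak (4.39) overlapped the DMSO peak of RDH10, a retinol dehydrogenase gene.

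Kept peaks with their center in a promoter of a protein-coding gene were ranked by −log10 q with MS67, which leaves out SIM2 (7.46). The strongest were at ZDHHC11B, a palmitoyltransferase gene (−log10 q 17.0 with DMSO and 9.04 with MS67), KCNA7 (5.30 and 7.44), PLEKHG4B (9.05 and 7.37), and NKAIN4 (13.3 and 6.91). TPSB2, a mast cell tryptase gene (27.8 and 6.56), ACHE, the acetylcholinesterase gene (13.4 and 6.55), CD24 (8.41 and 6.41), and NCOA2, a nuclear receptor coactivator gene (15.7 and 6.22), followed. ZDHHC11B and TPSB2 have near-identical neighbors in the genome, so their reads are uncertain in origin. At KCNA7, −log10 q was higher with MS67, with 16 fragments at the DMSO summit and 19 at the MS67 summit.

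Among peaks with their center in a promoter of a protein-coding gene, which leaves out those of HOXA9 and FOXL3, the strongest lost ones were at TPSAB1, another tryptase gene of the same cluster (31.3), DLL4 (17.5), LAMP3, a lysosomal membrane protein gene (15.9), MEX3D, an RNA-binding protein gene (15.4), and C15orf61 (14.4). They were followed by HOXA4, PTF1A, MPLKIP (12.7), DPYSL4, a neuronal growth cone gene (12.5), and MNX1. TPSAB1 had 39 fragments at its DMSO summit and lay in a region of low background (3.36 times the genome-wide coverage), whereas MNX1 had 72 fragments on a background of 39.8 times. The reads at TPSAB1 are uncertain in origin, as at TPSB2, so its loss and the kept peak of TPSB2 are uncertain too.

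Away from promoters, the kept peak of highest −log10 q with MS67 lay in intergenic sequence at chr17:24813063-24814372, megabases from the nearest coding start site, with 12 fragments at the DMSO summit and 26 with MS67. The next lay in an intron of a long noncoding RNA gene at chr1:161459899-161460169, with 38 and 26 fragments. The third, at chr16:16365186-16365702, lay in an exon of the pseudogene PKD1P2, one of a set of near-identical copies, with 78 and 29 fragments. The strongest lost peaks were an intergenic site on chromosome Y at chrY:56734668-56734927 (30.3), a coding exon of THSD7A, an endothelial adhesion gene (28.0), and an intergenic site on chromosome 5 at chr5:1840123-1841486 (25.5).

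The MS67-only peaks were weaker than the shared MS67 peaks by a small margin, with a median −log10 q of 2.99 against 3.56 and a median of 24 fragments at the summit against 33. They lay in gene bodies (181), intergenic sequence (101), and promoters (34). The strongest by far was in an exon of ASH1L, a histone methyltransferase gene, at chr1:155438339-155439428, with −log10 q of 87.5 and 117 fragments and no DMSO peak. The next had 15.1 and 7.72, in intergenic sequence of chromosomes 2 and 16. Among protein-coding promoters the strongest were CHODL (6.16), BEGAIN, a postsynaptic scaffold gene (5.28), NEURL1, a ubiquitin ligase gene (4.22), DMRT3, a spinal interneuron factor gene (4.18), and A4GALT, a glycosyltransferase gene (3.69).

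Base composition was read from 300 bases around each summit. Kept and lost sites were both rich in G and C, with medians of 61.7% and 59.3%, against 40.0% in windows spread over the genome and 62.7% at start sites of protein-coding genes. They differed in CpG-rich windows, defined by at least 50% G and C and an observed to expected CG ratio of at least 0.6. Of the kept windows 12.7% were CpG-rich (interval 10.6 to 15.1%), of the lost windows 23.5% (22.8 to 24.2%), and of coding start sites 59.5%. The kept share was 3.23% for CpG-rich sites (112 of 3467) and 6.57% for the others (767 of 11671). In the top quintile of −log10 q it was 12.4% (interval 9.76 to 15.5%) and 19.5% (17.9 to 21.1%), so the difference remained among the strongest peaks. MS67-only sites stood apart, with a median of 45.8% G and C and 6.33% of windows CpG-rich.

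The kept share followed G and C content only up to a point. It was 2.71% in the lowest of 5 equal groups, 8.36% in the fourth group, and 6.47% in the highest. Windows made of tandem repeats were rare (1 kept and 15 lost sites), and windows of repeated sequence, with most of 9 sampled 32-base words found more than once in the genome, made up 2.39% of kept and 2.01% of lost sites, against 14.9% of genome windows.

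Short motifs were counted on both strands of the same windows. The E-box CAGCTG, the site of neurogenic and myogenic bHLH factors, was in 24.2% of kept windows (interval 21.4 to 27.2%), 20.9% of lost windows (20.2 to 21.5%), 15.5% of MS67-only windows, 19.0% of coding start sites, and 10.1% of genome windows. The GC box GGGGCGGGG, bound by SP and KLF factors, was in 3.30% of kept windows, 4.44% of lost windows, and 19.4% of coding start sites. The AP-1 site TGANTCA was in 5.46% of kept, 6.46% of lost, and 9.18% of MS67-only windows, the last near the 9.20% of genome windows. A match is a run of letters and not a binding event.

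WDR5 peaks of DMSO-treated cells were more common at kept than at lost SS18::SSX sites. In the WDR5 list of DMSO-treated cells, a peak overlapped 405 of the 879 kept sites (46.1%, interval 42.7 to 49.4%) and 4693 of the 14262 lost sites (32.9%, 32.1 to 33.7%). At promoters the shares were 62.0% and 47.7%, and in intergenic sequence 43.1% and 25.5%. In the WDR5 list of MS67-treated cells, the shares were 15.6% (13.2 to 18.2%) of kept and 10.97% (10.5 to 11.5%) of lost sites, but at promoters they were 19.0% (23 of 121) and 19.1% (548 of 2874). Kept sites were also wider and stronger, and the part of width and strength in this difference was not tested. Of the MS67-only sites, 21.8% had a WDR5 peak with DMSO and 5.70% with MS67.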

How the data were processed

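CUT&RUN for SS18::SSX was compared between DMSO-treated and MS67-treated HSSY II cells, 1 library each. According to the study’s methods, the authors aligned reads to hg38 and to the mouse spike-in genome with Bowtie2, removed duplicates with Picard, and called peaks per library with MACS2. GEO’s processing notes of the submitters also list SAMtools (v.1.9), bedtools (v.2.28.0), and deepTools (v.3.3.0). Each deposited peak has a position, a summit, a fold enrichment by the authors (a ratio to local background), −log10 p and −log10 q, and a deposited score that was not used. A control library for peak calling is not given in the sources used here.

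Summit fragments and local background were solved from fold and −log10 p, with whole fragments fitting 100% of peaks within 0.001, and the step was tested on simulated data. The 10-kb reading of the background is an assumption, and the fitted fragment length rests on it. That length was not part of the simulated test. Genes, including the small RNA class at promoters, were those of GENCODE 44 (GRCh38, the coordinates of hg38). RefSeq was used for the count of peaks at transfer RNA genes. Peak starts were taken as 0-based and are printed from 1. Families of genes (40 lists) were matched by symbol. Named sites were the strongest kept, lost, and MS67-only peaks by −log10 q, the 10 genes with most DMSO peaks, up to 4 family members by strongest promoter peak, every developmental gene that kept one in a family of at most 10 such genes, and 6 genes shown in the study. One gene covered by these rules is left out. SOX9 and HOXA3 were named after their values were seen. Members and gene lists were chosen with earlier results of these data known. Alternatives were another overlap, stricter or fewer peaks, merged peaks, other promoters, and fewer gene classes. Computations were made in Python 3.11.15 and used numpy 2.4.6, pandas 2.3.3, scipy 1.17.1, and matplotlib 3.10.9.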

Additional observations from a re-analysis of the deposited data

How the results depend on the processing

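Shares moved with the definition of a kept peak, and the cause was not tested. In the order whole list, promoters, gene bodies, intergenic sequence, and genes keeping a promoter peak, the kept share was 2.91, 2.04, 2.61, 4.15, and 3.35% when an overlap of at least 50% of a peak’s own length was required. For genes, that overlap was between a peak and promoters in each list (75 of 2239 genes), not between the 2 lists. The kept share was 10.3, 6.74, 10.2, 13.2, and 6.57% with a peak within 1 kb, and 3.41, 3.28, 3.21, 3.90, and 3.41% with −log10 q and fold above 3 in both lists. With the DMSO list reduced to the 1175 peaks of highest −log10 q it was 30.6, 32.9, 29.9, 31.2, and 28.8%. With −log10 q above 5 in both lists the values outside the interval of the main one were 4.60% for the whole list, 4.62% in gene bodies, 4.92% in intergenic sequence, and 3.15% of genes. With neighboring peaks merged they were 6.67, 6.61, and 8.66% for the whole list, gene bodies, and intergenic sequence. Promoters of 500 bp on either side gave 3.06% at promoters and 2.94% of genes, and promoters of 2500 bp gave 5.44% and 7.32%. The number of MS67-only peaks was 490 at 50% overlap, 174 within 1 kb, 129 and 52 with the stricter peaks, and 791 against the reduced DMSO list. Promoters had the lowest share of the 3 places in 7 of 9 alternatives, and not with −log10 q and fold above 3 or with the reduced list. The share within 2 Mb of a chromosome end was above that beyond 20 Mb in all 6 alternatives that changed it, which were added after the result was seen. No paired analysis was possible because each condition had 1 library. Peaks with few fragments, down to 5 at a DMSO summit, limit what absence of an MS67 peak can show.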
